A study of Mus musculus with 6 samples.

Results

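Interleukins are small secreted proteins through which leukocytes, stromal cells and tumour cells signal to one another, and each acts through a receptor built from a chain of its own and, often, a chain shared with others. Cells of the osteoblast lineage are known to make some of them, among them IL-6 and IL-11, whose shared receptor chain gp130 (Il6st) activates STAT3. Members were all genes whose mouse symbol begins with Il and a digit, without Il34. This gave 82 of the 56196 genes in the count table: 40 ligands, ligand subunits and secreted antagonists, 40 receptor chains, and 2 that are neither (the enzyme gene Il4i1 and the antisense transcript Il1bos). Of these 82, 44 had enough reads to be tested, 16 ligands and 28 receptors.

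Polyadenylated RNA was sequenced from 6 mouse osteosarcomas. All carried Osx1-Cre with lox sites in both copies of Rb1 and p53, so that these tumour suppressors are cut in Osx1 (Sp7) expressing bone precursors. Double knockout tumours (DKO, genotype Osx1-Cre;Rb1lox/lox;p53lox/lox, n = 3) had Skp2 intact, and triple knockout tumours (TKO, n = 3) also carried SKP2-/-, which removes a ubiquitin ligase subunit. Replicate 1 of each group came from a male and replicates 2 and 3 from females; no ages are given. The comparison of TKO with DKO asks how transcription differs where Skp2 is missing. By sex, replicate 1 of each group came from another mouse than replicates 2 and 3. The labels do not say whether replicates 2 and 3 of a group came from separate mice. The p-values therefore speak only of the spread among these 6 samples.

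Values of a group are listed in the order of replicates 1, 2 and 3, named DKO1 to DKO3 and TKO1 to TKO3. Libraries held 17063231 to 22488819 gene counts, of which the members took 11315 to 43951. Skp2 had 20, 64 and 46 counts in DKO and 0 in each TKO library. Markers of other cells differed between the groups. The 4 pan-leukocyte markers Ptprc, Laptm5, Cd53 and Coro1a summed to 2.30 to 6.35 counts per 1000000 (CPM) in DKO and 204.5 to 596.7 CPM in TKO. The 8 macrophage markers summed to 8.86 to 125.2 CPM in DKO, most of it Cd68, with C1qa, C1qb and C1qc at 0, and to 814 to 2304 CPM in TKO. Of 8 T and NK cell markers 1 had any count in DKO, and their sum in TKO was 1.46 to 7.47 CPM. The 5 endothelial markers summed to 2.91 to 6.03 CPM in DKO and 99.8 to 571.4 CPM in TKO. The 5 skeletal muscle markers summed to 3.19 to 7.9 CPM in DKO and 292.2 to 8207 CPM in TKO. The 4 red cell markers summed to 0.498 to 1.175 CPM in DKO and 88.78 to 1159 CPM in TKO. Sums of the B and plasma cell, neutrophil, mast cell and epithelial markers were higher in every TKO tumour too. The epithelial sum was 575 CPM in TKO1, 543.1 CPM of it Krt18, against 14.32 and 18.05 CPM in TKO2 and TKO3. Krt18 itself overlapped between the groups. The 7 bone markers summed to 10310 to 13510 CPM in DKO and to 3179, 33930 and 38540 CPM in TKO, but differed from one another. Runx2 was at 83.3 to 97.1 CPM in DKO and at 58.4, 136.6 and 241.5 CPM in TKO. Spp1 was at 250.9 to 1612 CPM in DKO and at 2911, 1200 and 4848 CPM in TKO. Sp7 did not mark every tumour, at 7.97, 0 and 0.416 CPM in DKO and at 0, 206.4 and 433.4 CPM in TKO. Alpl, Bglap and Ibsp were at most 0.375 CPM in TKO1. Col1a1 was at 9947 to 11760 CPM in DKO and at 209.2 CPM in TKO1, against 30230 and 26910 CPM in TKO2 and TKO3. The part that this cell content has in the results was not tested, and in bulk tumour RNA fewer cells of a type and less RNA per cell cannot be told apart.

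Promoters of 3 ligand genes that stood lower in TKO are shown, since Il33, Il6 and Il12b were the 3 ligands with the highest level per kb of exon in DKO. Each window runs from 250 bases before the annotated start to 50 after it, in the RefSeq table of GRCm38.p6, on the plus strand: Il6 at chr5:30012864-30013163, Il12b at chr11:44399813-44400112 and the first of 2 listed Il33 starts at chr19:29924863-29925162. Capitals mark matches to 3 motifs searched on both strands: a kappaB-type site (GGG, any 2 bases, then TTTCC), an AP-1-type site, TGANTCA, and a C/EBP-type site, TTGCNNAAT.
Il6: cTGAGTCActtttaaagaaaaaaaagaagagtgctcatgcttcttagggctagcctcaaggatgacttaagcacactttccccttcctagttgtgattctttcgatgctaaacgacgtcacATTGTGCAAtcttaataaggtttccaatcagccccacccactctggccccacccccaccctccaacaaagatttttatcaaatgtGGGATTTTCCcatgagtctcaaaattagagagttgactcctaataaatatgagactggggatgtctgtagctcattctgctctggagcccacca
Il12b: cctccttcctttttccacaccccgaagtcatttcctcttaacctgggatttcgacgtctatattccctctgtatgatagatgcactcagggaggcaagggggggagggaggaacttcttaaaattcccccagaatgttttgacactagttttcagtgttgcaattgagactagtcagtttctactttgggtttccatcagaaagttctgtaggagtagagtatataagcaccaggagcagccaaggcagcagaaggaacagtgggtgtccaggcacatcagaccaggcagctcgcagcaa
Il33: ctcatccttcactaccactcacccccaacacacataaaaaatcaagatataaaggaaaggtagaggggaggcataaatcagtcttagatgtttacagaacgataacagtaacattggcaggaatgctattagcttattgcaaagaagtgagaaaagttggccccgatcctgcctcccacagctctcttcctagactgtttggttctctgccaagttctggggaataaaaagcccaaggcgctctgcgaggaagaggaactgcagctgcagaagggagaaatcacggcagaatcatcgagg

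The Il6 window held 1 match to each motif, with no overlap between them. The windows of Il12b and Il33 held none of these letters, which says nothing about other forms of the sites or other windows. Over all 32851 promoters of the table, 1.63% held the kappaB-type site, 7.81% the AP-1-type site and 2.4% the C/EBP-type site, and 4 promoters held all 3. Of 66 members with an entry, 7 had a kappaB-type, 14 an AP-1-type and 3 a C/EBP-type match in at least 1 window, and Il6 was the 1 member with all 3. These are counts of genes over 81 windows, so they are not on the scale of the shares per promoter. Of the members that passed the test described below, the 3 lower and 3 higher ones with an entry held 0 matches.

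Over all 15361 genes tested, 7.36% had an adjusted p under 0.05 (edgeR, quasi-likelihood test, Benjamini-Hochberg adjustment), 4.89% higher and 2.47% lower in TKO. Of the 16 tested ligands 3 passed, all lower in TKO: Il12b, Il33 and Il7. Of the 28 tested receptors 5 passed, with Il10ra, Il21r, Il12rb2 and Il18r1 higher and Il1rap lower. These 4 higher receptors had at most 2 counts in any DKO library, so they entered the test through the TKO group, and Il12b and Il7 likewise entered it through DKO. With genes left out that do not reach 1 CPM in a library of each group, 0 ligands (2 at an unadjusted p under 0.05), 1 receptor (Il1rap) and 146 of 13294 genes were called. Groups that did not overlap were found for 32.9% of all genes (17.3% with TKO above and 15.6% below), for 6 of the 16 ligands (4 with TKO below, 2 above) and for 16 of the 28 receptors (10 below, 6 above). The median log2 fold change was 0.49 over the tested ligands, -0.41 over the tested receptors and 0.09 over all genes. Il10ra and Il21r, at 0 throughout DKO, stay above the receptor median at their lower bounds too. Calls depended on the libraries that entered. With DKO1, DKO2 or DKO3 left out, edgeR called 0 ligands (5, 6 and 7 at an unadjusted p under 0.05) and 0 receptors (14, 15 and 14). Without TKO1 it called 6 ligands and 8 receptors, without TKO2 1 and 2, and without TKO3 1 and 1. Over all genes the count moved likewise, from 1131 to 39, 2 and 0 without DKO1, DKO2 and DKO3 and to 2385, 475 and 331 without TKO1, TKO2 and TKO3.

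**Figure D1:**
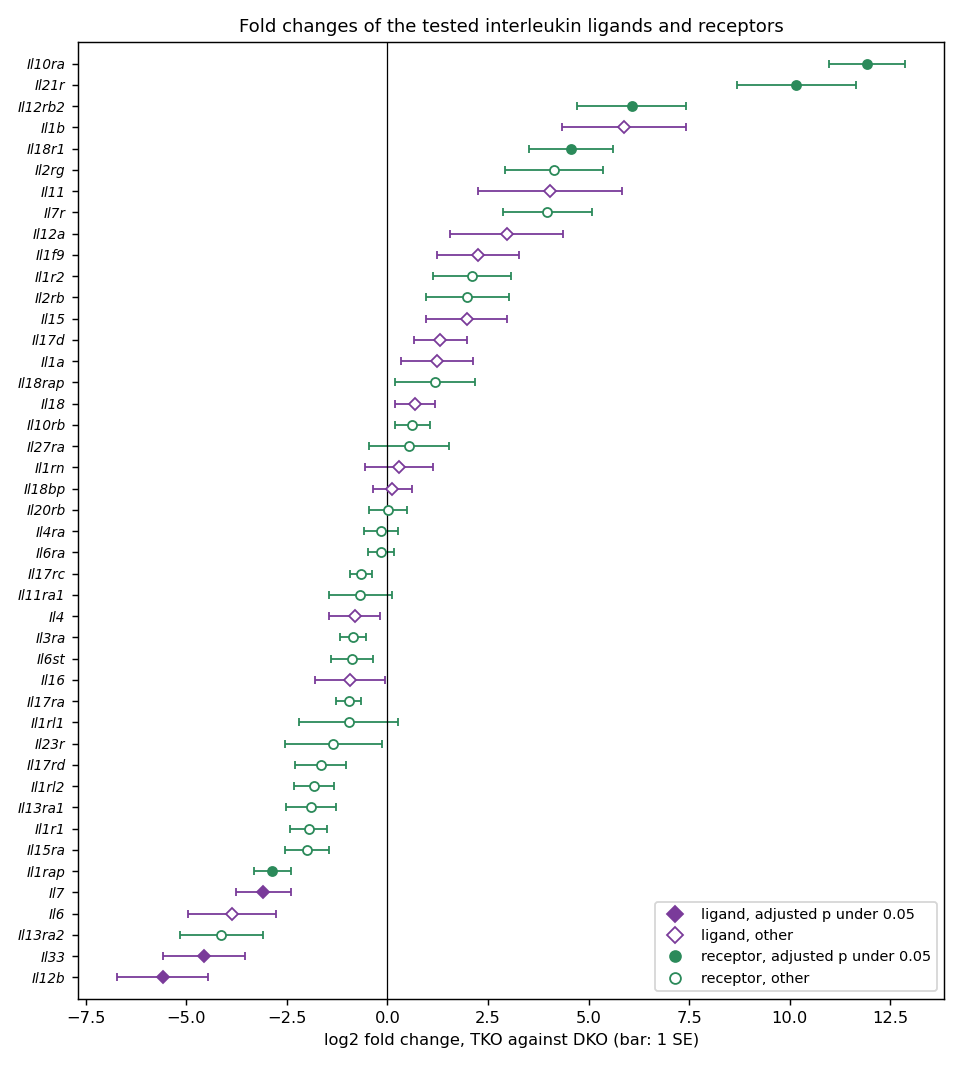
Log2 fold change of each of the 44 tested interleukin genes, TKO against DKO, with 1 SE as bars (edgeR, n = 3 tumours a group); diamonds are ligands, circles receptors, and filled symbols passed an adjusted p of 0.05. Il10ra stands at the top with a fitted 11.92, which depends on the prior count since DKO is at 0, and Il12b at the bottom with -5.58, and 22 genes lie on each side of 0.

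Il33, first of the ligands per kb of exon in DKO, fell in TKO. It encodes an alarmin, a nuclear protein released by damaged cells that acts on the receptor ST2. Il33 (ENSMUSG00000024810.16, chromosome 19, 29925114 to 29960718) was at 185.6, 250 and 562.8 CPM in DKO and at 26.6, 14.0 and 1.63 CPM in TKO. The groups did not overlap, and TKO3 was the lowest. Il33 fell by 4.56 on the log2 scale (SE 1.02, 23.6-fold, adjusted p = 0.0456). That call was lost with plain library totals (0.0503), no filter on low counts (0.141), sex as a covariate (0.0631) and without DKO1 (0.104), DKO2 (0.124), DKO3 (0.14) or TKO2 (0.12), in the blocked fit (0.134) and with genes near 0 in a group removed (0.0842).

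The classical IL-1 ligands were scarce in DKO. Il1b, the inflammatory cytokine that caspase-1 matures (chromosome 2, 129364570 to 129371139), was at 0, 0.256 and 0 CPM in DKO and at 1.88, 12.3 and 2.29 CPM in TKO. Every TKO value lay above DKO, TKO2 by far the highest, and the log2 fold change of 5.88 (SE 1.54) missed the threshold (adjusted p = 0.0681). It passed by DESeq2, by limma-voom, with no filter on low counts and without TKO1. With at most 5 counts in any DKO library, Il1b entered the test through the TKO group, so these passes are not separate support. Il1a, the form active before processing, was at 0.0594 to 0.664 CPM in DKO and 0.408 to 1.46 CPM in TKO, and the groups overlapped (adjusted p = 0.433). Il1f9, which encodes IL-36 gamma, was at most 0.297 CPM in DKO and 0.51 to 0.868 CPM in TKO (adjusted p = 0.224), and entered the test through TKO too.

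The antagonists of this family overlapped between the groups. Il1rn, the IL-1 receptor antagonist, was at 16.1, 11.0 and 3.68 CPM in DKO and at 5.21, 27.0 and 5.40 CPM in TKO. Its log2 fold change was 0.29 (SE 0.84, adjusted p = 0.862) and was -0.94 without TKO2, the library highest in Il1rn and in Il1b. Il18, another ligand that caspase-1 matures, was at 4.43 to 5.17 CPM in DKO and 4.33 to 11.0 CPM in TKO (adjusted p = 0.439). Its secreted binding protein Il18bp was at 4.81 to 12.8 CPM and 8.51 to 10.5 CPM (adjusted p = 0.903).

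**Figure D2:**
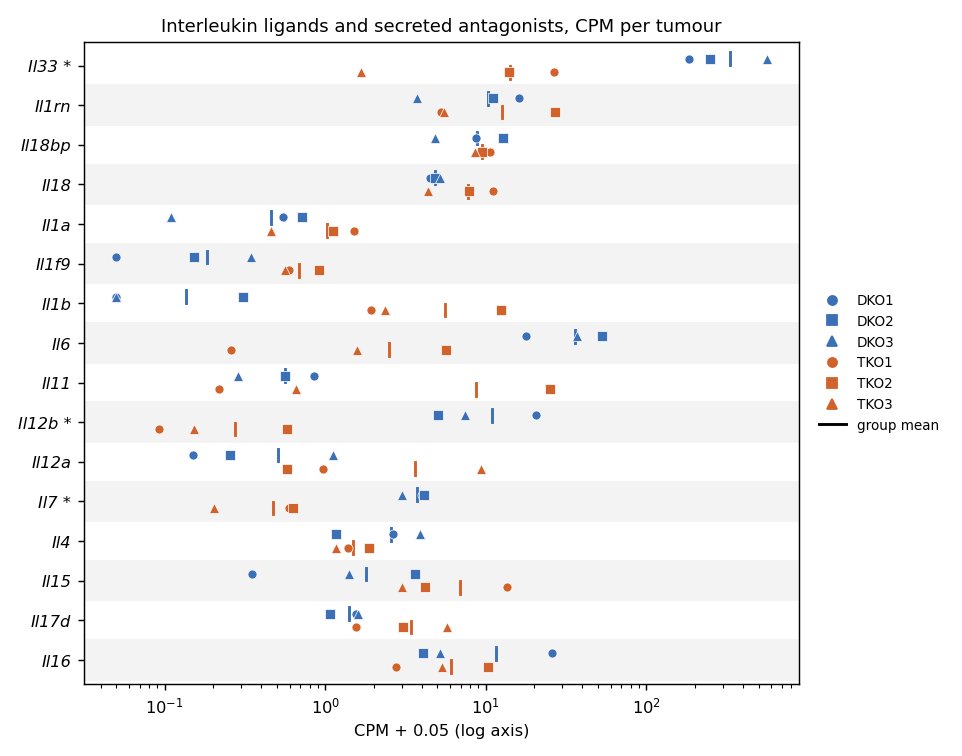
CPM (plus 0.05, log axis) of the 16 tested ligands and antagonists in each tumour, grouped by family; symbols are replicates, vertical bars group means, and an asterisk marks an adjusted p under 0.05. Il33, Il12b, Il7 and Il6 lie lower in every TKO tumour than in any DKO tumour, while Il11 is high in TKO2 alone.

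Of the gp130 ligands, Il6 was present in every DKO tumour. Il6 (ENSMUSG00000025746.11, chromosome 5, 30013114 to 30019981), the inflammatory cytokine whose promoter is printed above, was at 17.8, 52.6 and 37.1 CPM in DKO and at 0.208, 5.64 and 1.53 CPM in TKO. The groups did not overlap, TKO1 being the lowest. The log2 fold change of -3.87 (SE 1.09, 14.6-fold lower in TKO) missed the threshold in edgeR (adjusted p = 0.0828). It passed by DESeq2, by limma-voom, with sex as a covariate, in female tumours only and without TKO1, and had the same sign in all 17 alternatives. The alternatives refit the same tumours. With 5 counts in TKO1, Il6 met the filter in every library of DKO only, so these passes and signs are not separate support.

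Il11, a gp130 ligand of bone and stroma, was high in a single tumour. It was at 0.797, 0.511 and 0.238 CPM in DKO and at 0.167, 25.2 and 0.612 CPM in TKO. The log2 fold change of 4.05 (SE 1.79, adjusted p = 0.218) became -0.41 without TKO2. TKO2 also had the highest sum of skeletal muscle markers, 8207 CPM against 292.2 and 1206 CPM in TKO1 and TKO3. It was highest too in the endothelial sum and in each of the white blood cell sums, though not in the epithelial, bone or red cell sums. The part of any of these in the Il11 value was not tested.

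The shared IL-12 and IL-23 subunit Il12b stood lower in TKO, while its partner Il12a did not. Il12b (ENSMUSG00000004296.14, chromosome 11, 44400063 to 44414033), which codes for the p40 chain, was at 20.5, 4.96 and 7.42 CPM in DKO and at 0.0417, 0.531 and 0.102 CPM in TKO. These groups lay well apart. Il12b fell by 5.58 on the log2 scale (SE 1.13, 47.8-fold, adjusted p = 0.035). It missed the threshold in the blocked fit, with replicate number as a term (0.108), with sex as a covariate (0.0548), in female tumours only (0.0556), and without DKO1 (0.107), DKO2 (0.0978), DKO3 (0.109) or TKO3 (0.095). Il12a, the p35 chain of IL-12, was at 0.0996, 0.204 and 1.07 CPM in DKO and at 0.917, 0.53 and 9.28 CPM in TKO (adjusted p = 0.241). Per kb of exon, mean Il12b in DKO was 5.57 CPM and mean Il12a 0.269 CPM, so that transcripts of p40 exceeded those of p35 there. In TKO the means were 0.114 and 2.1 CPM per kb, with most of the Il12a in TKO3. Il23a, the p19 chain that joins p40 in IL-23, had 5, 0 and 4 counts in DKO and 2, 0 and 3 in TKO and was not tested.

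Il7 was the third ligand that fell. It encodes a stromal cytokine that sustains lymphocytes (ENSMUSG00000040329.14, chromosome 3, 7569994 to 7613760). Its level was 3.93, 4.09 and 2.97 CPM in DKO and 0.542, 0.579 and 0.153 CPM in TKO, with no overlap. The fold was 8.49 (SE of the log2 value 0.69, adjusted p = 0.0434). The call was lost under 9 of 16 alternatives, among them the replicate block (0.092) and leaving out DKO1 (0.122), DKO2 (0.144), DKO3 (0.138), TKO2 (0.0959) or TKO3 (0.0963).

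Other ligands overlapped between the groups. Il15, which supports NK and memory T cells, was at 0.299, 3.58 and 1.37 CPM in DKO and at 13.4, 4.15 and 2.96 CPM in TKO (adjusted p = 0.279). TKO1 was the highest for Il15. Il16, a chemoattractant for CD4-bearing cells, was at 25.7, 3.99 and 5.17 CPM in DKO and at 2.71, 10.2 and 5.25 CPM in TKO (adjusted p = 0.54). Its log2 fold change of -0.94 was 0.39 without DKO1, the one high DKO library. Genes on the other strand share 17.4% of its exon bases. Reads on shared bases are set aside as ambiguous in such counts (5.1 to 6.5% of reads in a library), so Il16 may be undercounted. Il4, the type 2 cytokine, and Il17d had adjusted p of 0.465 and 0.264, with no group mean above 3.38 CPM.

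The remaining 24 ligands were too low to test. For 7 of these no library had a count: Il1f5, Il1f6, Il9, Il17a, Il17b, Il20 and Il31. Il10, the anti-inflammatory cytokine, had 0 counts in each DKO library and 0, 22 and 28 counts in TKO. Both tumours with Il10 were also those with the higher leukocyte marker sums. No other untested ligand had more than 13 counts in a library. A count of 0 in 1 library allows up to 3 counts, or 0.133 to 0.176 CPM of the library totals.

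Ordered per kb of exon, the ligands stood differently in the 2 groups. In DKO the mean of Il33 was 115.3 CPM per kb, that of Il6 14.8, of Il12b 5.57 and of Il18 4.64, the first 4 of 40. In TKO the order was Il18 with 7.47 CPM per kb, Il33 with 4.88, Il11 with 4.16 and Il18bp with 3.14. Of these 4 TKO means, those of Il33 and Il11 rest on tumours that spread from 1.63 to 26.6 CPM and from 0.167 to 25.2 CPM, so their order is within that spread.

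Of the 7 tested IL-1 family receptor chains 1 fell and 1 rose, against 2.47% and 4.89% of all genes. Il1rap, the accessory chain that IL-1, IL-33 and IL-36 receptors all need (ENSMUSG00000022514.14, chromosome 16, 26581704 to 26730117), was at 155.8, 93.2 and 92.8 CPM in DKO and at 24.8, 11.9 and 10.4 CPM in TKO. The lowest DKO tumour was above the highest TKO tumour by a wide margin. Il1rap fell by 2.86 on the log2 scale (SE 0.45, 7.26-fold, adjusted p = 0.021). The call held in 12 of 17 alternatives, the replicate block included, and ended when DKO1 (0.0766), DKO2 (0.0784), DKO3 (0.0807), TKO2 (0.0609) or TKO3 (0.0567) was dropped.

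A run of 6 receptor genes of this family lies within 477.6 kb of chromosome 1 (40074079 to 40551705), all on the plus strand, and these neighbours differed from one another. Il1r1, the signalling receptor for IL-1, was at 216.5, 174.8 and 205.9 CPM in DKO and at 56.6, 75.5 and 21.5 CPM in TKO. The groups did not overlap, but the log2 fold change of -1.96 (SE 0.47) missed the threshold (adjusted p = 0.0531), and passed with no filter on low counts, by DESeq2 and by limma-voom. Il1rl2, the IL-36 receptor, was at 67.4, 54.0 and 86.7 CPM in DKO and at 8.50, 19.0 and 30.9 CPM in TKO (adjusted p = 0.0738). It passed by DESeq2, with no filter on low counts and without TKO1.

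Il1rl1, which encodes the IL-33 receptor ST2 in both its membrane and its secreted form, varied within TKO. It was at 114.9, 48.2 and 40.1 CPM in DKO and at 14.1, 88.9 and 1.22 CPM in TKO. TKO2 lay within the DKO range while TKO3 was near absent (log2 fold change -0.96, SE 1.23, adjusted p = 0.67), and counts per gene do not separate the 2 forms. The decoy receptor Il1r2, which binds IL-1 without signalling, was at 0.356 to 1.69 CPM in DKO and at 4.38, 6.61 and 0.714 CPM in TKO (adjusted p = 0.234).

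At the other end of the cluster lie the 2 chains of the IL-18 receptor. Il18r1 had 1, 1 and 0 counts in DKO and 11, 38 and 12 in TKO. It rose in TKO (log2 fold change 4.56, SE 1.04, adjusted p = 0.0464), with a ratio of 26.8 (95% counting interval 7.1 to 226.1), and the call was lost in 9 of 14 alternatives, among them limma-voom (0.0511) and leaving out DKO1 (0.14), DKO2 (0.163), DKO3 (0.163) or TKO3 (0.0896). Il18rap, its partner, was present in every tumour, at 6.87, 12.6 and 7.9 CPM in DKO and at 43.1, 17.1 and 1.48 CPM in TKO (adjusted p = 0.503). The TKO values of Il18rap lay on both sides of DKO.

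**Figure D3:**
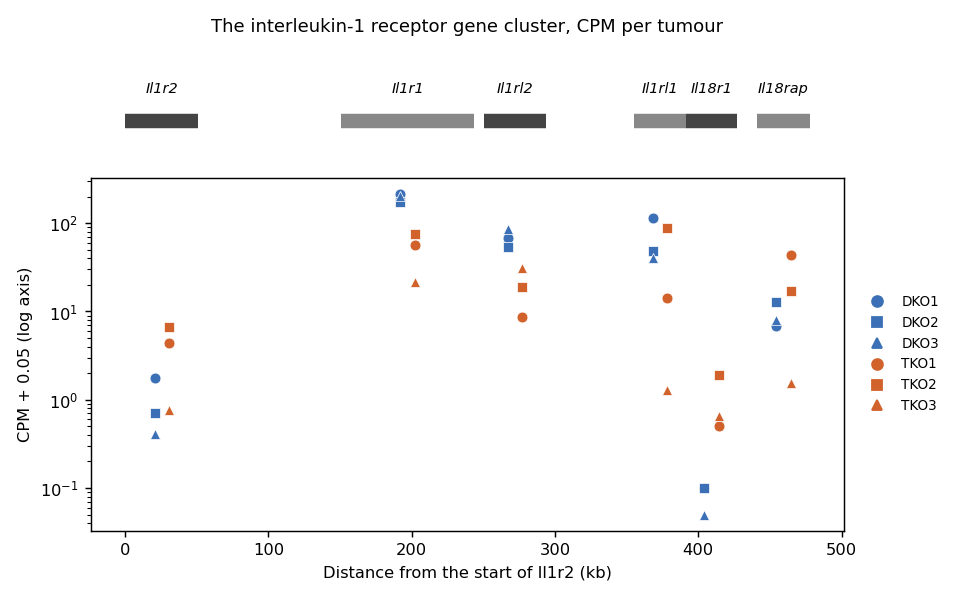
The 6 genes of the interleukin-1 receptor cluster, drawn to scale by distance from the start of Il1r2 (kb), with CPM plus 0.05 (log axis) of each tumour below; DKO symbols are set left and TKO symbols right of each gene's middle. Il1r1 and Il1rl2 lie lower in every TKO tumour, Il18r1 higher, and Il1r2, Il1rl1 and Il18rap overlap.

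Of the gp130 family receptors none passed, and 3 of the 4 tested overlapped. Over all genes 7.36% passed, and groups did not overlap in 32.9%. Il6st, the shared gp130 chain, averaged 44.4 CPM per kb of exon in DKO, second of the receptors to Il13ra1 with 53.7, and 24.0 CPM per kb in TKO, the first there. It was at 559.8, 447.5 and 471.1 CPM in DKO and at 362.1, 343.9 and 91.7 CPM in TKO. TKO3 was far below the rest, and the log2 fold change of -0.89 (SE 0.52) did not pass (adjusted p = 0.334). Il6ra, the IL-6 binding chain, was at 21 to 33.2 CPM in DKO and 19.1 to 30.7 CPM in TKO, a log2 fold change of -0.16 (SE 0.33, adjusted p = 0.796). Il11ra1, the IL-11 binding chain, was at 68.5, 60.4 and 46.1 CPM in DKO and at 4.71, 54.5 and 50.8 CPM in TKO (adjusted p = 0.632). TKO1, the one tumour low in Il11ra1, was also the one low in Col1a1, and the link was not tested. Il11ra2, a close copy of Il11ra1, was listed at 0 throughout, and reads that match both are left out of such counts, so Il11ra1 may be undercounted. Il27ra had a group mean of at most 2.46 CPM (adjusted p = 0.777).

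**Figure D4:**
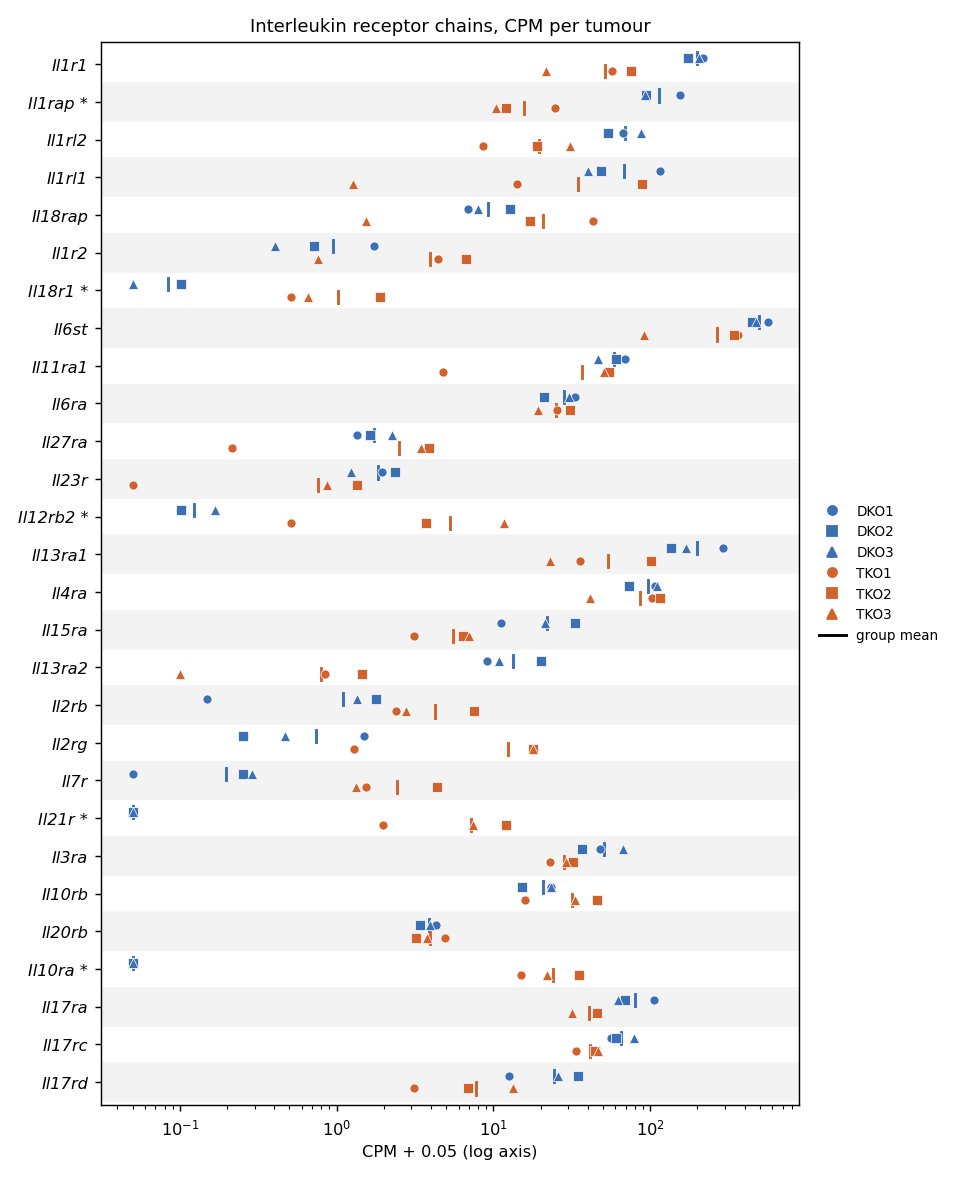
CPM (plus 0.05, log axis) of the 28 tested receptor chains in each tumour, grouped by family, with symbols, bars and asterisks as for the ligands. Il1rap lies lower in every TKO tumour, and Il10ra and Il21r are at 0 in all 3 DKO tumours.

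Receptor chains for IL-13 and IL-15 were lower in every TKO tumour without passing the main test. Il13ra1, which pairs with Il4ra to signal, was at 292.9, 135.5 and 170.0 CPM in DKO and at 35.4, 101.6 and 22.9 CPM in TKO (adjusted p = 0.116). It passed by DESeq2 and without TKO2. Il13ra2, the high-affinity decoy for IL-13, was at 9.01, 20.0 and 10.8 CPM in DKO and at 0.792, 1.4 and 0.051 CPM in TKO. Its log2 fold change of -4.13 (SE 1.03) had an adjusted p of 0.0602 and passed by DESeq2, by limma-voom and with no filter on low counts. With 1 count in TKO3, Il13ra2 met the filter in every library of DKO only, so these passes are not separate support. Il15ra, which presents IL-15 to other cells, was at 11.2, 33.0 and 21.2 CPM in DKO and at 3.04, 6.37 and 6.99 CPM in TKO (adjusted p = 0.077). It passed by DESeq2, with sex as a covariate and in female tumours only. Il4ra, the IL-4 binding chain, overlapped between the groups, at 73.1 to 110.2 CPM in DKO and 40.9 to 116.1 CPM in TKO, with a log2 fold change of -0.16 (SE 0.43, adjusted p = 0.848).

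Of the receptor chains tied to the common gamma chain, Il21r passed. Il21r, the IL-21 receptor of lymphocytes and myeloid cells (ENSMUSG00000030745.9, chromosome 7, 125603429 to 125633570), had 0 counts in each DKO library and 1.92, 12.1 and 7.39 CPM in TKO. It was at least 134.1-fold higher in TKO (adjusted p = 0.0297), taken against 3 counts over the DKO group. It missed the threshold when DKO1 (0.085), DKO2 (0.0967), DKO3 (0.0916), TKO2 (0.0672) or TKO3 (0.0724) was dropped, and under the replicate block (0.0821).

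Il2rg, the common gamma chain shared by receptors for IL-2, IL-4, IL-7, IL-9, IL-15 and IL-21, was uneven within TKO. It was at 1.44, 0.204 and 0.416 CPM in DKO and at 1.25, 17.8 and 17.7 CPM in TKO, so TKO1 lay within the DKO range (adjusted p = 0.0906). Il2rg passed by DESeq2, in female tumours only and without TKO1. With 4 and 7 counts in DKO2 and DKO3, Il2rg entered the test mainly through TKO, so these passes are not separate support. Of its exon bases, 30.5% are shared with the overlapping gene model Gm20489. Il7r was at 0, 0.204 and 0.238 CPM in DKO and at 1.5, 4.34 and 1.28 CPM in TKO (adjusted p = 0.0784). It passed by DESeq2, but entered the test through the TKO group. Il2rb was at most 1.74 CPM in DKO and at 2.33 to 7.48 CPM in TKO (adjusted p = 0.276).

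Il10ra, the ligand-binding chain of the IL-10 receptor, was absent from the DKO libraries and present in every TKO library. Il10ra (ENSMUSG00000032089.16, chromosome 9, 45253837 to 45269149) had 0 counts in all 3 DKO libraries and 15.0, 35.1 and 22 CPM in TKO. It was at least 452.9-fold higher in TKO (adjusted p = 0.0123). It missed the threshold under the replicate block (0.0533) and with DKO1 (0.0572), DKO2 (0.0575) or DKO3 (0.0556) left out. The other chain of that receptor, Il10rb, which is expressed widely, was at 23.4, 15.1 and 23.2 CPM in DKO and at 16, 45.7 and 33.1 CPM in TKO (adjusted p = 0.426), with 14.9% of its exon bases shared with the gene model Gm21970. Over the same libraries the leukocyte marker Ptprc, at most 0.153 CPM in DKO, was at 20.9, 95.1 and 88.3 CPM in TKO, and whether Il10ra and Il21r follow the number of leukocytes was not tested.

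Il12rb2, a signalling chain of the IL-12 receptor, had 1, 1 and 2 counts in DKO and 11, 76 and 227 in TKO. In CPM this was at most 0.119 in DKO and 0.459, 3.67 and 11.6 in TKO, with TKO3 the highest. Il12rb2 rose by a log2 fold change of 6.07 (SE 1.36, adjusted p = 0.0456), but 40% of its exon bases are shared with Serbp1 on the other strand. Reads on those bases are left out of the counts used, but in unstranded data they can enter the counts of 1 strand. Its call was lost by limma-voom (0.126), with the counts of 1 strand (0.0839), in the blocked fit (0.0731) and when DKO1 (0.144), DKO2 (0.169), DKO3 (0.145) or TKO3 (0.0901) was dropped. Its partner chain Il12rb1 was listed at 0 in all 6 libraries. No exon base of Il12rb1 is shared with another gene in GENCODE M21, but the release used for counting is not named, so the 0 is a listed value only. Il23r, which pairs with Il12rb1 for IL-23, was at 1.19 to 2.30 CPM in DKO and at 0, 1.3 and 0.816 CPM in TKO (adjusted p = 0.523).

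None of the tested IL-17 receptor chains passed, nor did Il3ra, the IL-3 binding chain, where 7.36% of all genes passed. Il17ra, the common IL-17 receptor chain, was at 106.1, 69.4 and 62.6 CPM in DKO and at 45.4, 45.4 and 31.7 CPM in TKO. The groups did not overlap (log2 fold change -0.96, SE 0.31, adjusted p = 0.118). Il17rc, its partner for IL-17A and IL-17F, was at 56.2 to 79.2 CPM in DKO and 33.6 to 46.6 CPM in TKO (adjusted p = 0.195), and Il17rd at 12.5 to 34.5 CPM and 3.04 to 13.2 CPM (adjusted p = 0.168). Il17a, the first ligand of these chains, had no count in any library. Il17rb and Il17re were too low to test, Il17rb with 0, 1 and 2 counts in DKO and 5, 26 and 4 in TKO. Il3ra was at 36.9 to 66.7 CPM in DKO and 22.9 to 32.0 CPM in TKO (adjusted p = 0.162). Il20rb was level between the groups, at 3.86 ± 0.46 CPM in DKO and 3.90 ± 0.86 CPM in TKO (SD, n = 3).

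Of the 12 receptors too low to test, 4 had no count in any library: Il11ra2, Il12rb1, Il1rapl1 and Il1rapl2. Il20ra had 125 counts in TKO2, 1, 12 and 2 in DKO, and 0 in TKO1 and TKO3. Il2ra, the inducible IL-2 receptor chain, had 0, 1 and 0 counts in DKO and 7, 32 and 16 in TKO, a ratio of 48.3 (8.31 to 1942). The other untested receptors had at most 30 counts in a library. The 2 members that are neither ligand nor receptor had at most 6 counts, and 86.3% of the exon bases of Il4i1 are shared with other genes.

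Genes that work with the interleukins but do not match the name pattern were listed separately: 52 genes, of which 49 were tested and 10 passed, 5 higher and 5 lower, with a median log2 fold change of -0.16, against 7.36% of all genes. Sigirr, Csf2rb, Csf2rb2 and Ebi3, 4 of the 5 higher genes, entered the test through TKO, and with genes near absent in a group left out 3 genes were called, all lower. Among gp130 receptor chains, Osmr, which binds oncostatin M, was at 325.5, 593.0 and 427.1 CPM in DKO and at 12.6, 81.4 and 32.2 CPM in TKO. It fell 10.7-fold (SE of the log2 value 0.71, adjusted p = 0.0365), a call lost in 5 of 17 alternatives: with DKO1 (0.0965), DKO2 (0.124), DKO3 (0.117) or TKO3 (0.101) dropped, and with genes near absent in a group removed (0.0753).

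Of 13 genes of IL-1 signalling 1 fell and 1 rose, against 2.47% and 4.89% of all genes. Nfkbiz, a nuclear cofactor of NF-kB that IL-1 and IL-17 induce, was at 211.3, 169.1 and 205.5 CPM in DKO and at 31.4, 30.4 and 18.0 CPM in TKO. Its values were tight within each group, and it fell 7.33-fold (SE of the log2 value 0.32, adjusted p = 0.0118). Sigirr, an inhibitory member of the IL-1 receptor family, had 0, 0 and 1 counts in DKO and 239, 86 and 92 in TKO. Sigirr rose with a ratio of 366.2 (65.4 to 14500, adjusted p = 0.0159). The other 11 did not pass, with adjusted p of 0.082 to 0.978. Of these, Tollip (log2 fold change -0.91) and Irak3 (-1.73, adjusted p = 0.186), which restrain the pathway, lay below DKO in every TKO tumour, and the remaining 9 overlapped. Over the 13 genes TKO lay wholly below DKO in 3 and wholly above in 1, against 15.6% and 17.3% of all genes.

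Casp4, the inflammatory caspase that cleaves gasdermin D, and Gsdmd, the pore-forming target, both fell. Casp4 was at 101.5, 147.5 and 93.1 CPM in DKO and at 10.3, 21.1 and 17 CPM in TKO (7.06-fold, adjusted p = 0.0144). Gsdmd was at 99.0, 109.7 and 117.7 CPM and at 46.2, 48.5 and 44.1 CPM in the same order (2.35-fold, adjusted p = 0.0294). Zc3h12a, an RNase that degrades mRNAs such as Il6 and Il12b and is itself induced by IL-17, was at 107.7, 90.2 and 79.0 CPM in DKO and at 21.5, 16.4 and 15.9 CPM in TKO (5.15-fold lower, adjusted p = 0.0125). In each of these genes the 2 groups lay far apart relative to their spread.

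The shared receptor chains Csf2rb and Csf2rb2, similar neighbours between which reads may be split, both rose. Csf2rb, the common beta chain of myeloid cells, was at 0.797, 0 and 0.178 CPM in DKO and at 32.1, 66.5 and 39.0 CPM in TKO (adjusted p = 0.0228). Csf2rb2, the chain specific to IL-3 in mice, was at most 0.297 CPM in DKO and at 14.7, 47.0 and 19.1 CPM in TKO (adjusted p = 0.0182). Ebi3, the partner subunit of IL-27, had no count in DKO and 16, 40 and 17 counts in TKO, at least 21.7-fold higher (adjusted p = 0.035). Il27 itself had 0, 0 and 1 counts in DKO and 6, 4 and 5 in TKO. The leukocyte marker sums given above were also higher in every TKO tumour, as were those of endothelium, skeletal muscle and red cells. The part of any of these in the values of these genes was not tested.

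Of the JAK kinases, STAT factors and feedback genes, only Socs2 passed, where 7.36% of all genes passed. Socs2, a cytokine-induced inhibitor of growth hormone and JAK2-STAT5 signalling, was at 3.19, 11.7 and 7.48 CPM in DKO and at 142.3, 47.7 and 67.2 CPM in TKO. It rose 11.5-fold (SE of the log2 value 0.64, adjusted p = 0.0286). The 4 kinases and the 6 tested STAT genes did not pass, with Stat3 at 281.1 to 332.5 CPM in DKO and 96.7 to 255.9 CPM in TKO (adjusted p = 0.298). Socs3, the feedback inhibitor of gp130, was at 87.9 to 332.3 CPM and 26.4 to 106.0 CPM (adjusted p = 0.195). All 10 calls in these genes were lost when any 1 DKO tumour was left out, and all 10 held without TKO1. Without TKO2 the calls of Csf2rb, Gsdmd and Ebi3 were lost, and without TKO3 those of Csf2rb, Socs2, Gsdmd, Ebi3 and Osmr. The fit with replicate number as a block lost Sigirr, Csf2rb2, Csf2rb, Socs2, Gsdmd and Ebi3.

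**Figure D5:**
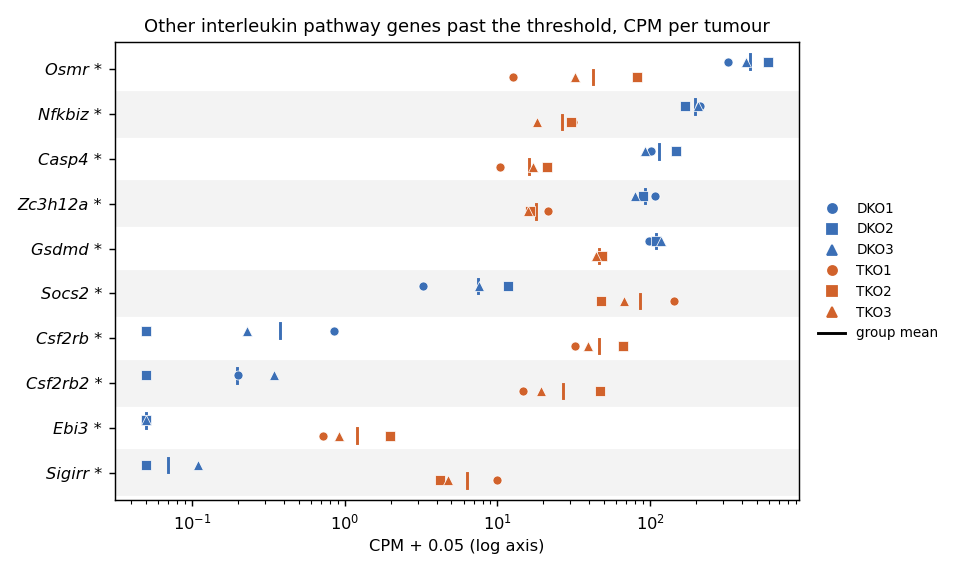
CPM (plus 0.05, log axis) in each tumour of the 10 other interleukin pathway genes that passed an adjusted p of 0.05, with symbols and bars as in the plot of ligands. The 5 upper genes are lower in every TKO tumour and the 5 lower genes are higher in every TKO tumour.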

How the data were processed

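Gene counts came from 6 tumours (3 DKO, 3 TKO). The authors deposited whole-number counts of reads per gene, with no normalization, in 1 table and in STAR files; STAR 2.6.1 and mm10 are named per the submitters' processing notes, and no annotation release is named there. The table equalled the unstranded file column, with 0 genes that differed. Reads were unstranded, so reads on bases shared with an antisense gene cannot be assigned and are set aside as ambiguous. GENCODE M21 (GRCm38) gave symbols for 55154 of 56196 gene IDs.

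Genes kept by filterByExpr (minimum count 10), 15361 in all, were scaled by TMM and compared by edgeR's quasi-likelihood test (edgeR 4.0.16, R 4.3.3, robust, no covariate) with Benjamini-Hochberg adjustment over all genes and a threshold of 0.05. CPM is counts per 1000000 of the effective library size, and the SE comes from the fold and the F statistic. Folds against a group at 0 use 3 counts over the group; ratios for 1 to 3 counts carry exact 95% counting intervals, which cover counting error only. Tested on simulated data with the means and library sizes of TKO against DKO (15361 genes, 5 runs), the test found 12.2% of the genes set to change 4-fold and 65% of those set to 16-fold, and made 6 false calls a run. Alternatives were RLE factors, library totals, 2 other filters, DESeq2 1.42.0, limma-voom (limma 3.58.1), no robust dispersion, the replicate block, sex, female tumours only, 1 strand column, and each tumour left out.

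Members named were those past the threshold, those with a group mean of at least 10 CPM and a list of 31; of other pathway genes, those past the threshold, up to 10 by p. A few more were named after their values were seen (Il1f9, Il4, Il17d, Il20ra, Il20rb, Il2ra, Il2rb, Il23r, Il27, Il27ra, Stat3, Socs3, Tollip and Irak3), as were the motifs chosen. The value of 1 listed pathway gene is not reported here. The members and lists were chosen with earlier results of these data known.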

Additional observations from a re-analysis of the deposited data

Results flagged for a closer look

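The male pair of tumours (replicate 1) and the female tumours (replicates 2 and 3) stood in opposite order in 5 of the 44 tested members (11.4%) and 8 of the 49 other pathway genes tested (16.3%), against 20.7% of all 15361 genes tested, so both shares lie below the background. In these genes the male TKO value lay on one side of the male DKO value, and both female TKO values on the other side of both female DKO values. No difference between the sexes was tested, and each group holds 1 male. The log2 ratio of TKO to DKO in males and in females was -3.24 and 0.76 for Il16, -2.26 and 5.11 for Il11, -0.55 and 1.04 for Il10rb, -0.21 and 5.84 for Il2rg, and -2.96 and 0.94 for Il27ra. For 7 of the 8 other pathway genes it was 1.39 and -1.88 for Ctf1, -1.28 and 2.12 for Lifr, -0.46 and 1.14 for Myd88, -0.83 and 0.52 for Irak4, 0.58 and -0.29 for Tab1, -3.68 and 1.73 for Casp1, and -0.68 and 2.45 for Pycard.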

How the results depend on the processing

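Of the 18 genes called by edgeR (8 members and 10 other pathway genes), 0 kept the call in all alternatives run. Every one kept its sign. RLE size factors and no robust dispersion changed none of the 18 calls, and DESeq2 kept all 18. Called genes numbered, for ligands, receptors, other pathway genes and all genes, 3, 5, 10 and 1131 in the main setting. Without the genes that a group nearly lacks they were 0 (2 at an unadjusted p under 0.05), 1, 3 and 146, by DESeq2 5, 12, 19 and 2893, and by limma-voom 5, 5, 11 and 1124. Under the replicate block they were 0 (6 at an unadjusted p under 0.05), 1, 4 and 295. With sex as a covariate they were 1, 5, 10 and 1189, and with 1 strand column 3, 3, 11 and 1111. Leaving out 1 tumour gave 0 to 6 ligands, 0 to 8 receptors, 0 to 13 other pathway genes and 0 to 2385 genes.

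Signs turned in genes that were not called: Il16 (0.75), Il18rap (-0.15) and Il1rl1 (0.027) in females only, Il18bp and Il1rn without DKO3, Il16 without DKO1, Il1rn and Il11 without TKO2, and Il4ra and Il6ra without TKO3. With 1 tumour left out the log2 fold change ran from -0.16 to 0.48 for Il18bp, -0.94 to 0.76 for Il1rn, -1.54 to 0.39 for Il16, -0.41 to 4.62 for Il11, -0.42 to 0.18 for Il4ra and -0.354 to 0.005 for Il6ra. The cause was not tested. Same-numbered tumours did not deviate together (correlations -0.007, 0.0089 and -0.017), so the numbers are not taken as pairs; not every tumour correlated best with its own number. For the 38 members too low to test, no fold change is given.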

Other observations

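Other listed genes of these pathways, named after their values were seen, did not pass the threshold in edgeR. Lif, a gp130 ligand, was at 51.1, 128.8 and 102.3 CPM in DKO and at 1.67, 31.3 and 9.69 CPM in TKO, below DKO in all 3 (adjusted p = 0.139). Its receptor chain Lifr was at 96.0, 121.8 and 158.7 CPM and at 39.6, 327.0 and 892.7 CPM in the same order, so that TKO1 lay below and TKO2 and TKO3 above DKO (adjusted p = 0.298). Tslp, an epithelial and stromal cytokine, was at 0.847, 6.90 and 5.17 CPM in DKO and at 0.357 to 0.459 CPM in TKO (adjusted p = 0.0631). Casp1, which matures IL-1 beta and IL-18, was at 49.6, 16.6 and 0.178 CPM in DKO, a wide spread within 1 group, and at 3.88, 25.2 and 30.2 CPM in TKO (adjusted p = 0.957). Nlrp3, its sensor, was at 0.653 to 1.69 CPM in DKO and 3.13 to 5.55 CPM in TKO (adjusted p = 0.113).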
